A study of Mus musculus with 8 samples.

Results

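The set described here consists of 5-hydroxymethylcytosine (5hmC) peaks that were present in differentiated cells but not in embryonic stem cells (ESCs). A nuclear liver peak was chosen where it overlapped by at least 1 bp a peak in mouse embryonic fibroblasts (MEFs) and a peak in brain, and no peak in either of 2 control ESC lists. The rule selected 9425 of the 130408 nuclear liver peaks, 7.23% of the list. Because presence and absence of peaks chose the set, the overlaps with these 5 lists are given as a description and nothing is tested on them. These peaks are called differentiated-shared peaks below, and the 26300 liver peaks that also met MEF and brain peaks but had a peak in an ESC list are called the peaks common to all 4 cell types.

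5hmC is made from 5-methylcytosine by the TET dioxygenases, which oxidize the methyl group, and is both a step on the way to unmethylated cytosine and a mark that can persist in the DNA. It lies mostly at CpG dinucleotides in gene bodies and distal regulatory regions. Adult brain is known for a high global level, and ESCs for a high activity of Tet1 and Tet2.

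The study mapped 5hmC by GLIB-Seq, in which each 5hmC is glucosylated, the sugar is opened with periodate and biotin is coupled to it, so that fragments carrying 5hmC can be pulled down and sequenced. The libraries used by the rule came from E14 cells (a mouse ESC line), from E14 cells transfected with shGFP, a hairpin control, from MEFs of C57BL/6 embryos, and from whole brain and whole liver of C57BL/6 mice at 8 weeks. The labels place the MEFs at embryonic day 11, whereas the methods give a later day. A library of E14 cells transfected with shSuz12, a hairpin against the Polycomb subunit Suz12, was not used by the rule. Every condition had 1 library, so no spread between replicates exists, no difference between conditions was tested, and the intervals printed after shares (95%, exact, Clopper-Pearson) cover counting error only. Brain and liver contain several cell types, and a peak in a whole tissue does not say in which of them it arose.

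The lists held between 130408 nuclear peaks (liver) and 217025 (MEFs), with 157511 in brain, 171865 in ESCs, 132996 in shGFP cells and 138705 in shSuz12 cells. Their lowest scores differed. The score of a peak is the one the MACS peak caller gave, taken as −log10 of the p-value multiplied by 10, and it began at 80 in ESCs and liver, at 50.02 in shGFP cells, and at 30 in MEFs and brain. A locus without an ESC peak is therefore a locus where nothing passed 80 or 50.02 in those lists, whereas a MEF or brain peak could be weaker, and the sequencing depth behind each list is unknown. Peaks over marker genes, summed over each list of 8, were densest in the library of the matching label for liver, MEFs and ESCs. Hepatocyte markers held 19.4 peaks per 100 kb in the liver list against 6.46 to 9.48 in the other lists. Fibroblast markers were densest in MEFs (33.9), against 7.71 in liver to 23.9 in ESCs. ESC markers were densest in the 3 ESC lists (20.5 to 23.6), against 3.36 in liver to 13.8 in MEFs. These sums rest on few genes. Of the 45 liver peaks at hepatocyte markers, 27 were in Cps1 and 15 in Hnf4a, with 0 in Alb, Apoa1, Serpina1a and Ttr, and of the 70 ESC peaks at ESC markers, 44 were in Esrrb and 23 in Tet1, with 0 in Pou5f1, Sox2, Klf4 and Zfp42. The brain list was not the densest over neuron and glia markers (8.24 per 100 kb against 14.3 in MEFs), and its density there was below its density over all genes (10.9). All 8 of these genes held a brain peak, but all 8 also held a shSuz12 peak.

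Sequences of the 300 bp at the centre of the stretch covered in liver, MEFs and brain are shown for 6 differentiated-shared peaks. In each of the 5 genes that held most of these peaks, the eligible peak with the highest liver score was taken. The last is the peak with the highest liver score of the set, in Zbtb16. Eligible peaks had at least 300 bp covered in liver, MEFs and brain and a window that overlapped no annotated exon. The windows are printed to show the sparse CpGs on which 5hmC can sit. All are intronic, from the plus strand of the mm9 assembly (NCBIM37), 5′ to 3′, with CpG dinucleotides in capitals.

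Sox5 (chr6:144092426-144092725): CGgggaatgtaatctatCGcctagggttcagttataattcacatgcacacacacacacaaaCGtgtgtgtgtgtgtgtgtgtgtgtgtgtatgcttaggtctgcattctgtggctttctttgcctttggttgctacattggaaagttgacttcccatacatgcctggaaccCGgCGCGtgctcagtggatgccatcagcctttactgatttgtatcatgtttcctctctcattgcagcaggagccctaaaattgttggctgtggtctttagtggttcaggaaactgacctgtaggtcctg
Nfia (chr4:97461008-97461307): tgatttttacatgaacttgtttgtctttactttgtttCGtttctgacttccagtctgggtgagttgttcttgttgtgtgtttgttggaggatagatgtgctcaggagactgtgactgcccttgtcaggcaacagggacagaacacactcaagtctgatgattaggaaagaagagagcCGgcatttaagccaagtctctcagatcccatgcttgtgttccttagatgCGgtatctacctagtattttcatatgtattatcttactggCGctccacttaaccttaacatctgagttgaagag
Atxn1 (chr13:46037110-46037409): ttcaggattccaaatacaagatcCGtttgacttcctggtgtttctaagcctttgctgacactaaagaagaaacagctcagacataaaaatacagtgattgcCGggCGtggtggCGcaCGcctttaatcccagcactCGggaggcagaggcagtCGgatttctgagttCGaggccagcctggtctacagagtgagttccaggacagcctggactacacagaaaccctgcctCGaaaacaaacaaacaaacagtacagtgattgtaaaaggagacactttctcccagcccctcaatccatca
Bach2 (chr4:32378573-32378872): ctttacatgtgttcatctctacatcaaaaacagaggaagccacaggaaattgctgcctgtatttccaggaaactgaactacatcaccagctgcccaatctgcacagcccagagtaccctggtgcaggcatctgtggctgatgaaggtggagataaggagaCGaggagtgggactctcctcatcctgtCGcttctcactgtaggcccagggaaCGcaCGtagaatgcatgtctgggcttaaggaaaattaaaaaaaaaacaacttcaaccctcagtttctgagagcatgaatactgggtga
Lpp (chr16:24501694-24501993): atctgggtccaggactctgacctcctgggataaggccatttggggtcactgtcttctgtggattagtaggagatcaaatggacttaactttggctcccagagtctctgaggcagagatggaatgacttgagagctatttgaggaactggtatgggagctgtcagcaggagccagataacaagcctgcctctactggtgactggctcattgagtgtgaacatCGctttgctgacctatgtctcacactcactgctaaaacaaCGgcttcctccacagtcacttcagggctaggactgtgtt
Zbtb16 (chr9:48572794-48573093): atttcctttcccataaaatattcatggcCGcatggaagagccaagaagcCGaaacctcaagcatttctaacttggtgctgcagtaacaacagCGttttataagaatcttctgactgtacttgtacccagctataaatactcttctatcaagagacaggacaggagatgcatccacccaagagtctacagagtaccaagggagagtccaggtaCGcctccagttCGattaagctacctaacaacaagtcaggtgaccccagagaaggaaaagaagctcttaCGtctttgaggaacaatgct

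These 6 windows held between 2 CpGs (Lpp) and 9 (Atxn1), and their GC content was lowest in Nfia (42.3%). The Sox5 peak was 4299 bp wide with a liver score of 1274, and the strongest peaks over it scored 121 in MEFs and 366 in brain. The Nfia peak was 3172 bp wide and scored 860 in liver, 145 in MEFs and 53.8 in brain. The Atxn1 peak spanned 3597 bp and scored 991, 434 and 99.9 in the same order. Each of these peaks scored highest in the liver list, but liver score had picked them within their genes. The liver list was also the one the intervals were taken from, and scores of different lists depend on their unknown depths. The Bach2 peak departed from this order, with a higher score in MEFs (548) than in liver (515) and 154 in brain, over 1901 bp. The Lpp peak (3232 bp) scored 573 in liver, 328 in MEFs and 54.6 in brain. The nearest ESC or shGFP peak was 0.877 kb away at Atxn1, 5.12 kb at Lpp, 7.51 kb at Sox5, 10.1 kb at Nfia, 10.5 kb at Zbtb16 and 11.3 kb at Bach2. No shSuz12 peak overlapped any of the 6.

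How the set arose from the liver list can be followed step by step. Of the 130408 liver peaks, 45.3% met a MEF peak, 46.4% met a brain peak and 27.4% met both. Of the 35725 liver peaks met in both, 69.4% overlapped a peak of the ESC list and 54.8% a peak of the shGFP list. Both ESC lists had a peak at 50.6%, the ESC list alone at 18.8% and the shGFP list alone at 4.19%, which left 26.4% (25.9 to 26.8%) with neither. Liver peaks shared with MEFs and brain thus mostly also had an ESC peak, and the differentiated-shared peaks were the smaller remainder. They made up 14.8% of the 63610 liver peaks without an ESC peak, fewer than the 31866 liver peaks that met none of the MEF, brain, ESC and shGFP lists. These are called liver peaks met by no other list below, although the shSuz12 list was not counted.

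**Figure D1:**
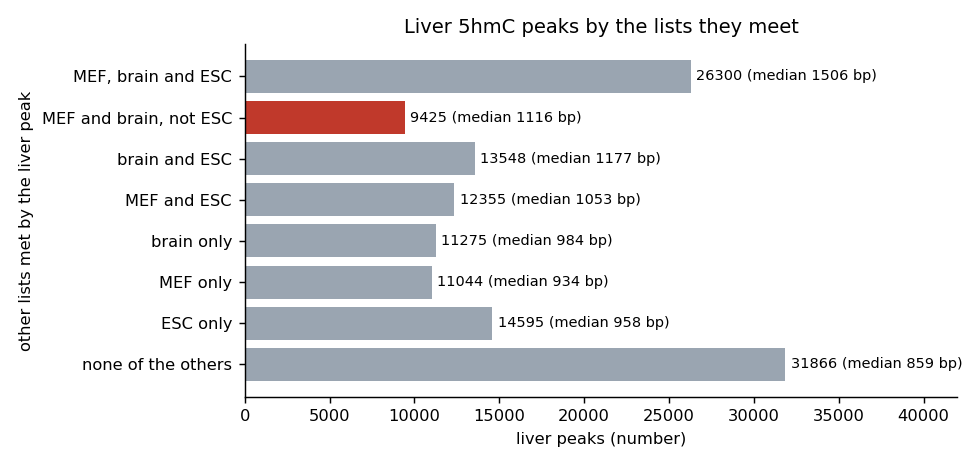
Number of nuclear liver peaks (horizontal axis) in each of the 8 combinations of presence in the MEF, brain and ESC lists, where ESC stands for the ESC or shGFP list, with the median width beside each bar. The differentiated-shared peaks (red, 9425) were the smallest of the 8 groups and those met by no other list (31866) the largest.

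Differentiated-shared peaks were of intermediate width. Their median width was 1116 bp (quartiles 883 and 1564 bp), 10% were below 743 bp and 10% above 2200 bp, and the extremes were 415 and 10414 bp. Together they covered 12.6 Mb of the 169.7 Mb under liver peaks. Peaks common to all 4 cell types were wider, with a median of 1506 bp, and liver peaks met in brain alone (984 bp), in MEFs alone (934 bp) or in no other list (859 bp) were narrower. The liver score ran in the same order, with medians of 186 for differentiated-shared peaks, 297 for those common to all 4 cell types, 153 for brain alone, 140 for MEFs alone and 121 for no other list. A wide interval is more likely to meet any other list, so width and the number of lists met cannot be told apart here.

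The peaks that matched them in MEFs and brain were weaker than those matching the peaks common to all 4 cell types. The strongest MEF peak over a differentiated-shared peak had a median score of 74.1 and 46.7% of them reached 80, against 101 and 59.9% for the common peaks. In brain, the median was 59.4 with 31.9% at 80 or more, against 77.5 and 48.1%. The common peaks were wider and more often met by 2 or more peaks (21.6% against 10.8% in MEFs, 17.5% against 7.66% in brain). The strongest score was thus taken over more peaks there. A median of 70.7% of the liver interval lay under MEF peaks and 81.9% under brain peaks, and the midpoints of liver and partner peaks were a median of 255 bp (MEFs) and 283 bp (brain) apart. Overlaps were thus mostly wider than the 1 bp required, but only 3917 of the set's peaks remained where MEF and brain overlaps had to reach 50% of both peaks. The stretch covered in all 3 differentiated samples had a median length of 641 bp (quartiles 414 and 831 bp) or 56.0% of the liver peak, and reached 500 bp in 69.2% of the set. At 577 peaks (6.12%) no base was covered in all 3, because the MEF and brain peaks met different parts of the liver peak.

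The set was selected for meeting no ESC peak, but such a peak was often near. The distance to the nearest ESC or shGFP peak had a median of 1956 bp, with quartiles of 646 and 5247 bp, and 33.9% of the set lay within 1 kb of one, against 31.2% of liver peaks met in brain alone and 25% of those met by none of the 4 other lists of the rule. At the other end, 1228 peaks were more than 10 kb from any ESC or shGFP peak, and the largest distance was 306937 bp. Just inside the limit set by the rule, 447 peaks lay at most 100 bp from an ESC or shGFP peak, with a median width of 1027 bp and a median liver score of 172. Just outside it, 364 liver peaks met in MEFs and brain overlapped an ESC or shGFP peak by at most 100 bp, with medians of 988 bp and 155. The medians on both sides of this limit were close to each other, and the absence of an ESC peak was for these a matter of fewer than 100 bp.

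The surroundings of the peaks were also compared, on lists that the rule used and with wide peaks still reaching several kb from their midpoint. At 5 kb from the midpoint, 14.3% of positions lay under an ESC peak, against 30.1% around peaks common to all 4 cell types, and at 20 kb the shares were 13.8% and 26.7%. For shGFP cells the shares at 5 kb were 9.36% and 19.8%. Brain coverage at 5 kb was 27.7% against 32.6%, and MEF coverage 24.9% against 28.3%. Around liver peaks met in brain alone the ESC share at 5 kb was 14.1%, close to that around the set, while brain and MEF peaks covered 23.2% and 15.9% of positions. Low ESC coverage nearby thus also went with other liver peaks without an ESC peak.

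**Figure D2:**
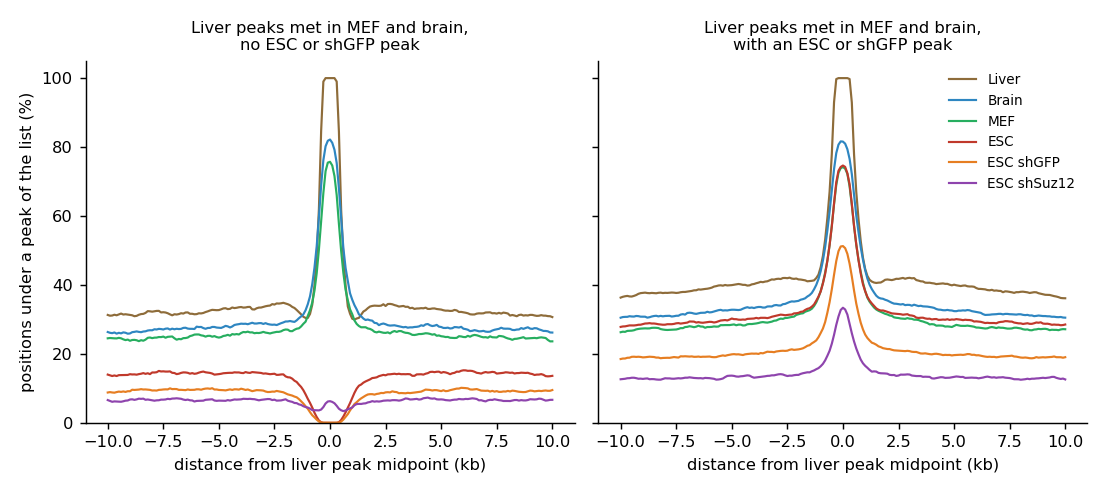
Percentage of positions under a peak of each of the 6 lists (vertical axis) against the distance from the liver peak midpoint in kb (horizontal axis), for the 9425 differentiated-shared peaks (left) and the 26300 peaks common to all 4 cell types (right). The liver, brain and MEF curves peak in both panels by selection, and at 5 kb the ESC curve is at 14.3% on the left and 30.1% on the right.

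The shSuz12 list was the only 5hmC readout that the rule left out. Of all liver peaks, 31.4% met a shSuz12 peak. Of the differentiated-shared peaks, 1255 (13.3%, 12.6 to 14.0%) did, against 62.6% (62.0 to 63.2%) of the peaks common to all 4 cell types. Liver peaks met in brain alone reached 10.6%, those met in MEFs alone 10.1% and those met by none of the MEF, brain, ESC and shGFP lists 6.92%. This further library of E14 cells thus also had few peaks at these loci, and differentiated-shared peaks met it more often than the 54185 other liver peaks without an ESC or shGFP peak (8.34%, 8.10 to 8.57%). The set was also wider by median than these other peaks. Over all liver peaks the share rose with width, from 14.3% below 700 bp to 48.15% from 1300 bp. From 700 to 1000 bp it was 9.80% in the set and 8.73% for brain alone, and from 1300 bp 16.9% and 14.6%. The part of width in the difference was not tested. The shSuz12 peaks over the set were weak, with a median score of 46.5 and 7.33% at 80 or more, against 65.4 and 33.5% over the common peaks. The share was 18.3% among the 447 peaks at most 100 bp from an ESC or shGFP peak and 7.82% among the 1228 more than 10 kb away. It varied little with location, from 12.1% at intergenic peaks to 15.6% at promoter peaks (19 of 122, 9.64 to 23.2%).

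Differentiated-shared peaks had their midpoints mainly inside introns. Location was not used by the rule. By midpoint, 6644 (70.5%, 69.6 to 71.4%) lay in an intron of a protein-coding gene, 2200 (23.3%, 22.5 to 24.2%) were intergenic, 459 (4.87%, 4.44 to 5.32%) lay in an exon, and 122 (1.29%, 1.08 to 1.54%) were within 1 kb of a transcription start site (TSS). Peaks common to all 4 cell types had more exonic (11.5%, 11.1 to 11.9%) and promoter peaks (2.12%, 1.95 to 2.30%) and fewer intronic ones (64.6%, 64.0 to 65.1%). Where an overlap of 1 bp replaced the midpoint, the set had 15.2% at exons, 3.61% at promoters and 59.3% in introns, and the promoter share by midpoint was 0.318% for promoters of 500 bp on each side, 4.56% for 2 kb and 2.53% with all annotated genes. Over all liver peaks the shares by midpoint were 60.9% intron, 26.8% intergenic, 9.74% exon and 2.58% promoter. The exon share of differentiated-shared and common peaks differed by more than their counting intervals, and the intron share of the differentiated-shared peaks was close to that of liver peaks met in brain alone (70.4%), which had 8.83% in exons. Liver peaks met in MEFs alone had 4.59% in exons, close to the differentiated-shared value, but 34.2% of them were intergenic.

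The exon difference was present at every width. Below 700 bp, 4.56% of differentiated-shared and 10.8% of common peaks had their midpoint in an exon. From 700 to 1000 bp the shares were 5.31% and 10.4%, from 1000 to 1300 bp 4.38% and 10.4%, and above 1300 bp 4.82% and 12.3%. The intron share rose with width, from 66.0% to 74.8% in differentiated-shared peaks and from 58.4% to 67.8% in common peaks.

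**Figure D3:**
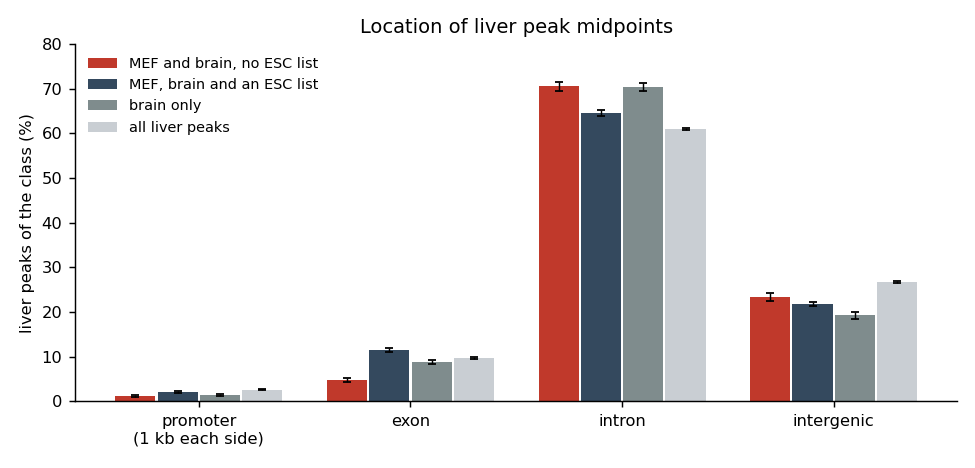
Percentage of peaks (vertical axis) whose midpoint lies in a promoter, exon, intron or intergenic region, for differentiated-shared peaks, peaks common to all 4 cell types, liver peaks met in brain only and all liver peaks, with exact 95% intervals for counting error. Differentiated-shared peaks have 4.87% of midpoints in exons, against 11.5% for the common peaks.

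The 122 promoter peaks were next to 125 genes, and the TSS itself lay under the peak in 40 cases. The midpoint was upstream of the TSS in 84 pairs and downstream in 42, so these peaks mostly flanked a TSS. Inside genes, the peaks were spread along the whole transcribed length. With each gene divided into 10 equal parts from the TSS to the end, the parts held between 9.07% and 11.4% of the genic peaks. The last part held 9.22%, against 12.9% for the peaks common to all 4 cell types, which were more frequent towards the 3′ end. The median distance from the TSS was 63283 bp, against 35982 bp for the common peaks and 31621 bp for all genic liver peaks. Intergenic peaks were also more remote, a median of 25.5 kb from the nearest protein-coding gene against 14.9 kb, and 34.7% of them lay more than 50 kb away against 23.5%.

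Genes of at least 100 kb held most of the genic peaks of the set. Of the 7159 genic peaks, 39.9% (38.8 to 41.0%) were in genes of at least 200 kb and 27.4% in genes of 100 to 200 kb, whereas the common peaks had 23.4% and 23.5% there. Genes below 20 kb held 4.81% of the differentiated-shared and 12.3% of the common peaks. Expressed as a share of the liver peaks in the genes, the set made up 2.93% in genes below 20 kb, 4.21% from 20 to 50 kb, 5.57% from 50 to 100 kb, 9.53% from 100 to 200 kb and 13.9% in the longest genes. Of the liver peaks also met in MEFs and brain, the part without an ESC or shGFP peak increased from 11.9% to 37.6% over the same classes. Both shares rose at each step of gene length. Per 100 kb of gene, however, the set numbered 0.417, 0.569, 0.689, 1.001 and 0.712 over the same classes, so its density was highest from 100 to 200 kb, and in the longest genes it was near the value for all genes (0.717). The density of ESC peaks fell over these classes from 18.8 to 5.64 per 100 kb of gene, and that of liver peaks from 14.2 to 5.11, while MEFs went from 11.17 to 11.15 and brain from 11.9 to 8.89. The part that this difference in ESC peak density plays in the share was not tested.

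**Figure D4:**
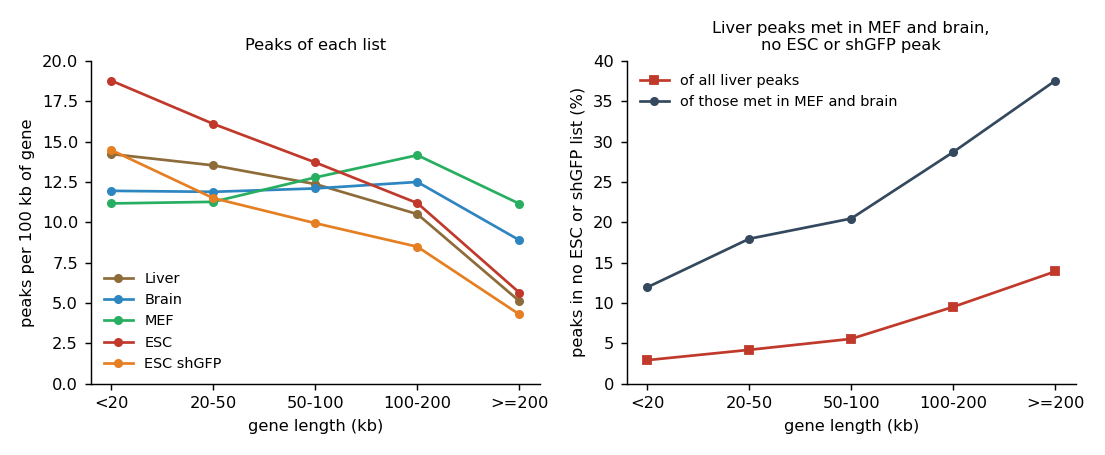
Left, peaks per 100 kb of protein-coding gene in 5 lists (vertical axis) by gene length in kb (horizontal axis). Right, differentiated-shared peaks as a percentage of all liver peaks and of those met in MEFs and brain, by the same length classes, which rises to 13.9% and 37.6% in genes of at least 200 kb.

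The set was unevenly spread over genes, as liver peaks were as a whole. At least 1 differentiated-shared peak lay in 2678 of the 22367 protein-coding genes (12.0%), 1528 of them held exactly 1, 368 held at least 5 and 129 at least 10. Of the 7286 pairs of a peak and a gene, 50% were in 342 genes, 12.8% of the genes with a pair. The same count was 724 genes (18.4%) for liver peaks met in brain alone, a group of similar size, and 1383 genes (11.0%) for all liver peaks, so the set was not more concentrated than the liver list as a whole by this measure. The 20 genes with the most held 640 peaks, 6.79% of the set. The 20 leading genes of the peaks common to all 4 cell types held 5.04% of that group, those of the liver peaks met in brain alone 4.04%, and those of all liver peaks 2.81%. All but 1 of the 20 were at least 200 kb long, so that the number in a gene is to be read beside its length.

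The 20 genes with most peaks are described by what they encode, beginning with 5 transcription factors. Sox5, an SRY-box factor of cartilage and neural development (chr6:143776945-144730497, minus strand), held 64 differentiated-shared peaks among 235 liver, 233 MEF, 176 brain and 75 ESC peaks. Nfia, a nuclear factor I gene needed for glial development (chr4:97439425-97868605, plus strand), held 49 among 118 liver, 110 MEF and 91 brain peaks, and only 12 ESC and 11 shGFP peaks. Nfia held many peaks in the 3 differentiated lists and few in the ESC lists, whereas Sox5 held peaks in both. These are lists of the rule by which the genes were ranked, and their lowest scores differ. Bach2, a repressor of the BTB and basic leucine zipper class known from B cells (chr4:32325779-32673083, plus strand), held 38 among 107 liver and 53 ESC peaks. Rora, a nuclear receptor of the clock and of cerebellar development (chr9:68501593-69236053, plus strand), held 32 among 134 liver, 180 brain and 46 ESC peaks. Zbtb20, a zinc finger repressor expressed in liver and hippocampus, held 29 among 170 liver peaks, 62 of which were in no other list. In Bach2, 4 of the 107 liver peaks met no other list.

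The other 15 genes were of several kinds. Atxn1, which encodes ataxin 1 (chr13:45650262-46060345, minus strand), held 41 of 137 liver peaks, and Lpp, a LIM-domain protein of focal adhesions (chr16:24393436-24992662, plus strand), held 37 of 133. Ror1, a receptor tyrosine kinase for Wnt5a, held 28 of 78 liver peaks, with 6 ESC peaks in 349.0 kb. Stard13, a GTPase-activating protein, held 27 of 72 liver peaks in 196 kb, the highest density of the 20 genes (13.8 per 100 kb), also with 6 ESC peaks. In 8 of the 20 genes, among them Nfia, Ror1, Stard13, Atxn1, Lpp and Zbtb20, the differentiated-shared peaks outnumbered all ESC peaks of the gene. Prkca and Prkce, isoforms of protein kinase C, held 26 of 69 and 27 of 177 liver peaks, with 37 and 119 ESC peaks, and Gfra1, a receptor subunit for GDNF, held 25 of 79. The other 8 genes of the 20 were D18Ertd653e (28), Eif4e3, a cap-binding protein (28), Fbxl17, an F-box protein (28), Arid1b, a subunit of the BAF chromatin remodelling complex (27), Dock4, an exchange factor for Rac (27), Maml3, a coactivator of Notch (27), Magi1, a scaffold of cell junctions (27), and Fndc3b (25). Arid1b and Magi1 had more ESC peaks (83 and 95) than differentiated-shared peaks. Of the 640 peaks in the 20 genes, shSuz12 peaks met 3 in Sox5, 2 in Nfia, 0 in Stard13 and up to 8 in a single gene.

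**Figure D5:**
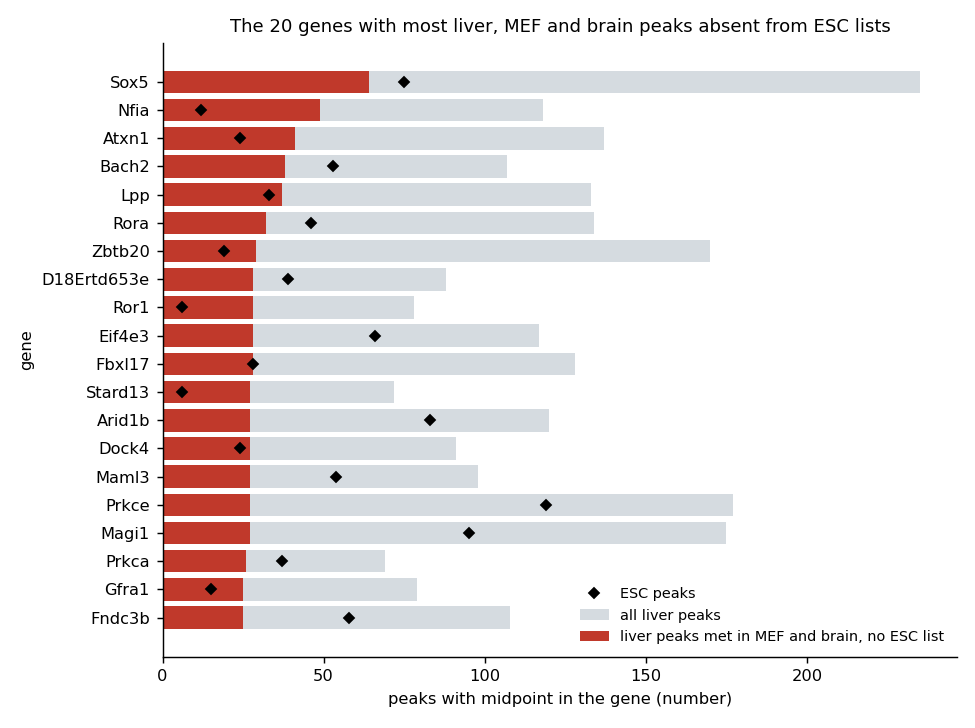
Number of peaks with midpoint in the gene (horizontal axis) for the 20 genes with most differentiated-shared peaks: these peaks in red, all liver peaks in grey and ESC peaks as black diamonds. Nfia (49 red, 12 ESC), Ror1 (28 and 6) and Stard13 (27 and 6) have few ESC peaks, and Prkce (27 and 119) has many.

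Ranking genes by the share of their liver peaks instead of the number brought up shorter genes. Among the 2672 genes with at least 10 liver peaks the median share was 5.00%, the upper quartile 10.8% and the highest 58.3%, and 1117 (41.8%) held none. Rasgef1b, an exchange factor for Ras-family GTPases, held 7 of 12 liver peaks in 35.5 kb. Aig1 held 8 of 14, Ets1, a transcription factor of lymphocytes and endothelium, 10 of 18, and Slc22a15, a solute carrier, 7 of 13. In these genes a liver peak was more often than not also a MEF and brain peak without an ESC counterpart, on counts of at most 18. Crim1, a membrane protein that binds bone morphogenetic proteins, held 22 of 42, and Camk2d, a calcium and calmodulin dependent kinase, 17 of 36 with 2 ESC peaks in 248.8 kb. Igf1r, the receptor of insulin-like growth factor 1, held 9 of 19 although it had 59 ESC, 103 MEF and 94 brain peaks, so that ESC peaks lay elsewhere in the same gene. Synm, an intermediate filament protein, held 5 of 10, Cables1 11 of 23 and Tshz1, a zinc finger factor, 12 of 26.

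Other genes with many liver peaks held none of the set. Thrb, the beta receptor for thyroid hormone, held 50 liver peaks, of which 41 met no other list, and had 9 MEF, 6 brain and 1 ESC peak. Most of its liver peaks thus met no peak of any other list. Trak1, a mitochondrial transport adaptor, held 61 liver peaks and Ubr4, a ubiquitin ligase, held 52. Trak1 had 59 peaks in each of ESCs and MEFs, with 33 of its liver peaks common to all 4 cell types. Mtus1 and 4933407C03Rik held 56 liver peaks each, and both lie on chromosome 8.

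Gene groups were compared with all protein-coding genes, of which 12.0% held a differentiated-shared peak and whose liver peaks belonged to the set in 7.56% of cases. The groups were chosen with earlier results of these data known. Nuclear factor I genes and nuclear receptors had 8 of 16 genes with at least 1, and 107 of their 573 liver peaks (18.7%) belonged to the set. Nfia (49), Rora (32) and Nfib (16), another nuclear factor I gene, supplied most of these. Nfia and Rora are also among the 20 genes with most peaks of the set, so the group's share is not independent of that ranking. Nfix, of the same family, held none among 32 liver peaks, and had 37 ESC peaks. The group median was 0.5 peaks per gene, and its genes had a median length of 93.5 kb against 15.4 kb for all genes, so length differs along with the count.

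Insulin and IGF signalling had 11 of 16 genes with a differentiated-shared peak and a median of 2 per gene, the highest of the groups. These included Igf1r (9), Pik3r1, the regulatory subunit of phosphoinositide 3-kinase (5), and Igf2r (4), and the group made up 33 of 264 liver peaks (12.5%). Akt2, a kinase of the same pathway, held none among 17 liver peaks. TGF-beta and Smad signalling had 6 of 16 genes and 32 of 243 liver peaks (13.2%), among them the coreceptor Tgfbr3 (10), the receptor Tgfbr2 (7) and the effector Smad3 (6), whereas Smad4 held none of 19. The remaining 9 peaks of this group were in Ltbp1 (5), Tgfb2 (3) and Smad6 (1). Genes of the actin cytoskeleton and adhesion had 10 of 20 genes and 40 of 484 liver peaks (8.26%), among them talin Tln2 (7), with none of 26 in Actn4. Their median length was 118.9 kb. Of all genes of 100 to 200 kb, 40.1% held a peak of the set, which made up 9.53% of their liver peaks. The insulin and IGF group (median 84.5 kb) and the TGF-beta group (68.7 kb) were also longer than all genes (15.4 kb). For all genes of 50 to 100 kb the values were 27.2% and 5.57%. The circadian clock had 5 of 14 genes and 41 of 287 liver peaks (14.3%), but 32 of the 41 were in Rora, 6 in Npas2 and 1 each in 3 other genes, and Arntl held none of 40.

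Chromatin modifiers, collagens and laminins and hepatic metabolism had a smaller part of their liver peaks in the set than all genes (7.56%). By genes with a peak of the set, chromatin modifiers and collagens and laminins were above the 12.0% of all genes. The median lengths were 77.9 kb (chromatin modifiers), 114.4 kb (collagens and laminins) and 21.9 kb (hepatic metabolism). In all genes of 50 to 100 kb the set made up 5.57% of liver peaks. From 100 to 200 kb it was 9.53% and from 20 to 50 kb 4.21%. Chromatin modifiers had 7 of 20 genes and 15 of 305 liver peaks (4.92%), with 4 in the deacetylase Hdac4, 3 in the dioxygenase Tet3 and 3 in the methyltransferase Mll1, and none of 36 in the corepressor Ncor1. Collagens and laminins had 5 of 17 genes and 7 of 108 liver peaks (6.48%), 3 of them in Lamc1. Hepatic metabolism had 2 of 138 (1.45%), both in Cps1, the first enzyme of the urea cycle, which had 27 liver and 0 ESC peaks, and none of 45 in Acaca, which makes malonyl-CoA. Acaca and Cps1 supplied much of the group's liver peaks, whereas Cyp2e1, Cyp3a11 and Cyp7a1 held 1 each and Pck1 and Tat 0. The low share of this group thus rests on few genes. Neuronal adhesion genes, with a median length of 1189 kb, had only 25 liver peaks in 16 genes and 2 of the set, both in Ntm. These genes were thus the longest group and among the sparsest in liver peaks. Ribosomal protein genes had 5 of 16 genes with 1 peak each, among only 16 liver peaks (31.2%), the highest share of the groups but on few liver peaks. Pluripotency factors had 3 of 19 liver peaks (15.8%) in 2 of 16 genes, Esrrb (2 of 8 liver peaks, with 44 ESC peaks) and Klf2 (1 of 1). Cell type markers held few in number, namely 2 of 45 liver peaks at hepatocyte genes (Cps1), 2 of 43 at neuron and glia genes (Syt1 and Mbp, 1 each), 2 of 10 at ESC genes (Esrrb), a higher share than over all genes,, 0 of 20 at fibroblast genes and 0 of 26 at genes of endothelium and blood. None of the 8 let-7 microRNA loci found in the annotation was closer than 22.9 kb to a differentiated-shared peak, although 4 of them overlapped a liver peak.

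Differentiated-shared peaks occurred next to each other more often than their share of the liver list. After such a peak the next liver peak on the chromosome was also one in 17.2% of cases, against 7.23% after any liver peak. Even so, 69.4% of the set stood alone, 21.3% in pairs of consecutive liver peaks and 6.43% in runs of 3. The longest run, 7 peaks over 28.5 kb in Gas7 (chr11:67364971-67393428), still had 2 ESC and 2 shGFP peaks between its members. Runs of 6 without any ESC or shGFP peak inside lay in Hivep2 (14.8 kb), Bach2 (11.9 kb), Gfra1 (18.1 kb) and Slc9a9 (12.9 kb). These genes, and those of the next paragraph, were named after their values had been seen.

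The strongest members formed a cluster in Zbtb16, which encodes the BTB zinc finger factor PLZF. Its 3 intronic peaks had liver scores of 2544, 2480 and 2427 and widths of 10414, 5259 and 8256 bp (chr9:48563816-48574229, chr9:48596802-48602060 and chr9:48574303-48582558). The MEF peaks over them scored 142, 80.1 and 74.2, and the brain peaks over the first and second 112 and 128. All 3 scored far higher in the liver list than in the lists that they met, but they were chosen for their liver scores. The lists also begin at different scores, and their depths are unknown. Only 1569, 843 and 932 bp were covered in all 3 samples. A shSuz12 peak met the second and the third. The next in liver score were single peaks in Dapk1 (1816), Gna12 (1755) and Rnf144b (1745). In Rnf144b the MEF peak scored 347 and 2743 bp were common, and in Daam1 (1695 in liver) the brain peak scored 383 with 2647 bp common.

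By chromosome, the set ranged from 3.51% (3.10 to 3.96%) of liver peaks on chromosome 8 and 4.93% on chromosome 11 to 10.1% (9.29 to 10.8%) on chromosome 13. On chromosome 8, ESC lists met 70.9% of liver peaks, against 43.4 to 58.8% on the other autosomes, while MEFs met 47.2% (41.8 to 48.6% elsewhere) and brain 51.5% (44.0 to 49.2%). The low count on chromosome 8 thus went with a high number of ESC peaks, and its part in the count was not tested. Without chromosome 8 the set was 7.45% of liver peaks. The X chromosome held 1 of 104 liver peaks and the Y chromosome 0 of 15, which allows up to 21.8%, but the lists had few peaks on X (22 to 757), so absence there says little.

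In sequence, differentiated-shared peaks were poorer in GC and CpG than the common peaks. The median GC content was 45.2% (quartiles 42.6 and 47.8%) against 48.5% for peaks common to all 4 cell types, 44.7% for brain alone and 43.9% for no other list. CpG dinucleotides numbered a median of 1.29 per 100 bp against 1.64, 1.16 and 1.01, respectively. The ratio of observed to expected CpGs was 0.257 against 0.282, 0.237 and 0.213. In all 3 measures the set thus lay between the common peaks and liver peaks without an ESC or shGFP peak that met fewer lists. Liver peaks with an ESC or shGFP peak did not follow this order. Their median GC content was 47.2% with no MEF or brain peak, 47.4% with MEFs and 48.1% with brain, all above the set. Their CpGs were also above it (1.38 to 1.55 per 100 bp). The median GC content of all liver peaks was 46.1%. Within introns alone the set's medians were 44.9% GC and 1.26 CpGs per 100 bp. Common intronic peaks had 48.0% and 1.57, so the difference between set and common peaks was also present there. The central 300 bp of the liver peaks had a median of 1.33 CpGs per 100 bp in the set and 1.67 in common peaks. Centred on the stretch covered in all 3 samples, as in the windows printed above, the set's median was 1.67, with 577 windows that had no such stretch centred on the liver peak.

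Of 4 motifs searched on both strands in the central 300 bp of the liver peaks, TGANTCA includes the forms bound by AP-1 factors. It was present in 1014 differentiated-shared peaks (10.8%, 10.1 to 11.4%), against 9.62% (9.27 to 9.98%) of common peaks, 8.32% of those met in brain alone and 9.29% of all liver peaks. The nuclear factor I palindrome was rare, in 11 of the set (0.117%, 0.0583 to 0.209%), against 0.0456% (0.0236 to 0.0797%) of common and 0.0399% of all liver peaks. The octamer ATGCAAAT was present in 1.31%, against 1.16% and 1.30%, and CANNTG, the E-box, in 83.2%, against 83.2% and 83.4%. Octamer and E-box letters were thus as frequent as in other liver peaks within counting error. The TGANTCA letters were more frequent than in common peaks by slightly more than counting error. That error takes peaks as independent, although peaks of the set lay next to each other more often than their share of the liver list. For the nuclear factor I palindrome the interval of the set overlapped that of common peaks but not that of all liver peaks (0.0298 to 0.0523%), on 11 matches. A match of letters does not show that a factor was bound.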

How the data were processed

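Per the sources, the authors mapped GLIB-Seq reads to mm9 with Bowtie 0.12.7 (unique hits, duplicates collapsed) and called peaks library by library with MACS 1.4.1. CASAVA 1.8 is also named in the submitters' processing notes. The deposited lists give other values, namely the start and end of each peak, and a score from MACS. The threshold and the control of each list are not given in the sources used here. Here 1-based positions are printed, mitochondrial peaks were left out, and overlaps, distances and midpoints were computed with Python 3.11.15, numpy 2.4.6, pandas 2.3.3 and scipy 1.17.1, and drawn with matplotlib 3.10.9. The steps were tested on simulated peaks. Genes came from the GENCODE annotation of NCBIM37 and sequence from the same assembly.

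The set and the gene lists were chosen with earlier results of these data known. Named genes were the 20 with most members, the 10 with the highest share among genes with at least 10 liver peaks, the 5 with most liver peaks but no member, and at most 4 per gene list. Any others were chosen after their values had been seen, and 1 gene is not reported here. Alternatives were a 50% overlap, a score of at least 80, equal numbers of peaks, other ESC lists, a 1 kb margin, MEF or brain peaks as the counted list, 1 width range, other gene definitions and, for sequence, the common stretch. The last 2 alternatives, without chromosome 8 and with the shGFP list alone, were added after the data had been seen. Repeat content was not analysed here.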

Additional observations from a re-analysis of the deposited data

How the results depend on the processing

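No paired analysis was possible because there was 1 library for every condition. The differentiated-shared set was 7.23% of liver peaks. It was 3.0% where overlaps had to reach 50% of both peaks, 1.46% with all 5 lists limited to scores of 80 or more, 5.52% with equal numbers of peaks, 8.38% with the ESC list alone, 6.26% with the shSuz12 list added, 4.78% without ESC or shGFP peaks within 1 kb, 4.91% of MEF peaks, 6.02% of brain peaks, 6.89% of liver peaks of 700 to 1300 bp, 7.45% without chromosome 8 and 12.4% with the shGFP list alone. The number of peaks therefore depends strongly on the scores and overlaps admitted. In the same order, where it left the interval of the main value, the median width of 1116 bp became 1056, 1282, 1167, 1130, 1096 (shSuz12 added), 882 (MEF peaks), 1140 (brain peaks) and 951 bp (700 to 1300 bp). The intron share of 70.5% became 68.5% at a 50% overlap, 76.0% at a score of 80, 68.1% at 700 to 1300 bp, 68.6% with promoters of 2 kb and 59.3% where an overlap of 1 bp replaced the midpoint, which raised exons from 4.87% to 15.2% and promoters from 1.29% to 3.61%. Genes with a peak of the set numbered 1560 at a 50% overlap and 795 at a score of 80, against 2678. The shSuz12 share of 13.3% became 11.9% at a 50% overlap, 17.7% at a score of 80, 16.5% with equal numbers, 16.1% with the ESC list alone, 12.3% with the 1 kb margin and 11.0% at 700 to 1300 bp, and is 0 by construction where shSuz12 defines absence. Median CpGs per 100 bp were 1.67 in the common stretch. In each of the 10 alternative sets for which it was computed, peaks of the set were more often intronic, less often exonic and narrower than the peaks that also met an ESC list. Sox5 held most in 7 of these 10, Bach2 in 2 and Nfia in 1, and 11 to 20 of the 20 leading genes were shared. Depth is unknown, so absence from a list means only that no peak passed its threshold.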
